A study of Rattus norvegicus with 20 samples.

Results

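Heat shock proteins and their DnaJ partners keep the muscle proteome folded. The genes described here were the protein-coding rows of the count table whose symbol began with Hsp90, or with Hspa, Hspb, Hsph, Dnaja, Dnajb or Dnajc and a number, together with Hspd1, Hspe1, Cryab and Bag3. The rule found 73 genes among 32495 named rows, and 65 of them were among the 11716 genes with enough counts to be tested. The 8 that were not tested were Dnajb3, Dnajb7, Dnajb8, Dnajb13, Dnajc5b, Dnajc5g, Dnajc6 and Hspb9.

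Hsp70 proteins bind exposed hydrophobic stretches of unfolded chains and release them in cycles of ATP hydrolysis. DnaJ proteins bring clients to Hsp70 and speed up the hydrolysis, Hsp110 proteins exchange the nucleotide, Hsp90 proteins finish the folding of selected clients, and small heat shock proteins hold unfolded chains without ATP. In striated muscle the small heat shock proteins sit at the Z disc and the filaments, where Bag3 joins Hspb8 and Hsp70 in the disposal of damaged filamin. Cytosolic stress raises part of this gene family through heat shock factor 1 (Hsf1), and unfolded protein in the endoplasmic reticulum raises another part through a separate pathway.

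RNA-seq was done on gastrocnemius, a hindlimb muscle made mainly of fast fibres, from female Fischer 344 rats, all of which carried the Ward colorectal carcinoma. TUMOUR STD rats ate the standard diet and received no chemotherapy. CHEMO STD rats ate the same diet and, once the tumour had grown for 2 weeks, received 2 cycles of irinotecan (CPT-11) with 5-fluorouracil at 50 mg/kg, and their muscle was taken 7 days after the second cycle. CHEMO FO rats received the same drugs and were moved to a diet with fish oil, a source of eicosapentaenoic and docosahexaenoic acid, at the first dose. No rat without a tumour was analysed here, so every comparison is between tumour-bearing animals. There were 5 TUMOUR STD, 7 CHEMO STD and 8 CHEMO FO libraries, each named below by its number from 1 to 20. CHEMO STD libraries 1 and 2 were far closer to each other (chi-square of 2.23 per gene) than any of 58 other pairs of the same group (13.7 to 255), and their counts were summed as 1 sample, which left 6 CHEMO STD samples and 19 in all.

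Depth ran from 3020821 to 10857477 counts per library. Levels are given as CPM, the gene's count divided by the library's total and its composition factor and put on the usual common scale. They compare samples for a gene, not one gene with another, since no transcript length was applied. A gene was called in a comparison when its unadjusted p was under 0.05 and its change at least 1.5-fold. Fast-fibre genes, the defining markers of this muscle, were abundant in every sample, with a summed level of 118700 to 237600 CPM. Library 18 of CHEMO FO stood apart from the rest and set much of what follows, so the fold changes and counts of calls of CHEMO FO are given with and without it. TUMOUR STD library 10 also stood apart, with a summed keratinocyte level of 571 CPM, against at most 8.07 CPM in CHEMO STD and 118 CPM in library 16 of CHEMO FO. The labels do not say in words that each library came from a different animal, and p-values measure the spread between these samples.

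Promoters are shown for 5 members whose levels separated library 18 from all other samples, since they carry the short elements of both stress pathways. A RefSeq promoter window of 300 bases (250 before the transcription start and 50 after it, build GRCr8) was on hand for 57 of the 73 members. Cryab, Hsp90aa1, Hspa1b, Dnajc2 and Dnajc24 were among those with none. The lines give the 250 bases before the start, 5′ to 3′ on the gene's strand. Capitals mark inverted GAA units 2 bases apart (GAANNTTC or TTCNNGAA, each its own reverse complement), the core of the heat shock element, in Hspa8, Hsph1 and Hspb1. In Hspa5 and Hsp90b1 they mark the endoplasmic reticulum stress element, which is CCAAT, 9 bases of any kind and CCACG, on either strand.
Hspa8: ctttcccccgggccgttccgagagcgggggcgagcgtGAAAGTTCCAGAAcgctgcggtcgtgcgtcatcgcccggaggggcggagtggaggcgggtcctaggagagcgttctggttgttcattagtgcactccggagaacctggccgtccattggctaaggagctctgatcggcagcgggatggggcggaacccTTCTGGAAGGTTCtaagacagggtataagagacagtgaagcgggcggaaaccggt
Hsph1: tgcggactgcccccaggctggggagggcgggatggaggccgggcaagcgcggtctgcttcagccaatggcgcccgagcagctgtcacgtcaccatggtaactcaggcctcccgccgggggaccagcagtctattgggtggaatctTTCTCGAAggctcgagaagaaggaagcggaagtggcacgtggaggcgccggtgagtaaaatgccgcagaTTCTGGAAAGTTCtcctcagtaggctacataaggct
Hspb1: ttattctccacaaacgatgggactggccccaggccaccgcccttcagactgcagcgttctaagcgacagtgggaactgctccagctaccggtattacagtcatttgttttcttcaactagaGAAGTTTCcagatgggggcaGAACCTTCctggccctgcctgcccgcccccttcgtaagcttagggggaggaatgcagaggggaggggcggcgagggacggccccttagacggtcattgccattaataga
Hspa5: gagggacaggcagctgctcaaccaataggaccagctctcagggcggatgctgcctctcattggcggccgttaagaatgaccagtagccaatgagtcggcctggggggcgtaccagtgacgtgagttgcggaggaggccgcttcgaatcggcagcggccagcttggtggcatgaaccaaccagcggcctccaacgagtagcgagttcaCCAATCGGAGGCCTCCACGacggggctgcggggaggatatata
Hsp90b1: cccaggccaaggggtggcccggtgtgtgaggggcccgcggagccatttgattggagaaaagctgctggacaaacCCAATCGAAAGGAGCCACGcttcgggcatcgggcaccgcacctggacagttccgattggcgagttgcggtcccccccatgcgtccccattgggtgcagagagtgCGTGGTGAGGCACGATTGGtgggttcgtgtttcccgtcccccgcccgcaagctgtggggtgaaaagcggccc

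The Hspa8 stretch is chr8:50080264-50080513 on the plus strand, and the Hsph1 stretch is chr12:10427118-10427367 on the plus strand. The Hspb1 stretch is chr12:26432302-26432551 on the minus strand. The Hspa5 stretch is chr3:38452766-38453015 on the plus strand, and the Hsp90b1 stretch is chr7:23012294-23012543 on the minus strand. Hspa8 held 2 elements of 3 units, starting 213 and 55 bases before the transcription start, and Hsph1 held 1 of them 36 bases before it. Hspb1 held 2 elements of 2 units, and Hsp90b1 held the endoplasmic reticulum stress element in both orientations. Dnaja1 carried a 3-unit element inside the transcribed part of its window, and Dnajb1, Dnajb6, Hspb8 and Bag3 carried elements of 2 units. So did Hspa2, Hspa4l, Hspa9 and Dnajc5g, as well as Hspb6, Dnajc18 and Dnajc27, which were at their lowest of all samples in library 18. Hsp90ab1, Hspa4, Dnajb2, Dnajb9 and Dnajb11, at their highest in library 18, carried none of these elements in their windows.

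Over all members with a window, 17 of 57 (29.8%) held the 2-unit element, against 15.9% of 33469 promoters of the same length. Those promoters were not limited to protein-coding genes, as the members were. The 3-unit element, which contains the 2-unit form, was in 5 of 57 (8.77%) against 0.798%. The endoplasmic reticulum stress element was in 3 members (5.26%), namely Hspa5, Hsp90b1 and Dnajc3, against 0.0657% of all promoters. Hspd1 and Hspe1, which encode the mitochondrial chaperonin and its lid, lie head to head with windows that overlap by 211 bases. Their elements are therefore shared, and the 5 members with the 3-unit element count them under each gene. A match here describes the letters of the window and no binding was measured.

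Few of the chaperone genes passed the call rule after chemotherapy on the standard diet. In CHEMO STD versus TUMOUR STD, 3 of 65 members were called (2.38% of all genes tested were called), namely Hspb7 lower, and Dnajc2 and Dnajc24 higher. Of all genes tested, 0.93% were called higher and 1.45% lower. At an unadjusted p under 0.05 there were 6 members, against 6.5% of all genes. No gene passed after Benjamini-Hochberg adjustment over all genes tested (0% with edgeR's quasi-likelihood test), nor with DESeq2 or limma voom. Those tools gave 7 and 10 members at an unadjusted p under 0.05, and their shares over all genes are not given here. In bulk muscle, fewer cells of a type and less RNA per cell cannot be told apart.

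Hspb7, a small heat shock protein of heart and skeletal muscle that binds filamin C, was the member with the smallest p. Its level in TUMOUR STD was 287, 373, 395, 269 and 329 CPM in libraries 8 to 12. In CHEMO STD the lowest level was 122, the median 157 and the highest 362 CPM. All but 1 of the CHEMO STD samples lay below the lowest TUMOUR STD sample, the exception being library 5, so the groups overlapped. The mean was 331 ± 54.0 CPM (SD, n = 5) without chemotherapy. With it, the mean was 190 ± 91.6 CPM (SD, n = 6), and the log2 fold change was −0.81 (SE 0.28). Its p was 0.00940 by edgeR's quasi-likelihood test, and its adjusted p 0.719. The call held when each library was left out in turn, with log2 fold changes from −1.09 to −0.71. Without library 18, which belongs to neither group of this comparison, it was −0.80.

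Hspb6 and Bag3 were lower in CHEMO STD at an unadjusted p under 0.05 but by less than 1.5-fold. Hspb6 (Hsp20), an actin-associated small heat shock protein, was 638, 679, 938, 610 and 806 CPM in TUMOUR STD libraries 8 to 12. It ran from 446 through a median of 544 to 638 CPM in CHEMO STD, and only library 5 of CHEMO STD reached the TUMOUR STD range. Its log2 fold change was −0.45 (SE 0.21, edgeR adjusted p 0.719). Bag3, the co-chaperone that links Hspb8 to Hsp70, was 51.9, 79.7, 83.5, 49.5 and 59.1 CPM in TUMOUR STD. It ran from 31.4 through a median of 41.5 to 61.4 CPM in CHEMO STD, with a log2 fold change of −0.54 (SE 0.23, edgeR adjusted p 0.719). The CHEMO STD samples reached past the TUMOUR STD median at the top and lay below the whole TUMOUR STD range at the bottom.

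Markers of slow fibres were lower in CHEMO STD as well. All 11 slow-fibre genes had a negative log2 fold change in the same comparison, with a median of −0.36, and 2 of them (Myh7, the slow myosin heavy chain, and Atp2a2, the slow calcium pump) were called lower. Their summed level was 8585 to 16910 CPM in TUMOUR STD and 7017 to 11680 CPM in CHEMO STD. CHEMO STD library 5, the high sample for Hspb7, also had the highest slow-fibre sum of its group, and TUMOUR STD library 11, the low sample for Hspb7, had the lowest. Bag3 was also lowest of TUMOUR STD in library 11. In CHEMO STD, however, Bag3 was highest in the summed sample of libraries 1 and 2, where the slow-fibre sum was 7724 CPM. Smooth muscle genes were also lower, with 3 of 5 called and a median of −0.74. The part of fibre type or vessel content in the Hspb7, Hspb6 and Bag3 values was not tested. None of the other 6 small heat shock genes tested had an unadjusted p under 0.05, and their log2 fold changes ran from −0.38 for Cryab to 0.24 for Hspb11. Of 5 leukocyte genes, 2 were called higher (Ptprc and Lyz2), and both were highest in library 7 of CHEMO STD. Ptprc was 65.9 CPM there and 10.1 to 17.4 CPM in the other CHEMO STD samples. Lyz2 was 170 CPM there, against 45.9 to 68.6 CPM.

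Most of the DnaJ C genes leaned the other way. Of 25 tested, 21 had a positive log2 fold change, with a median of 0.11 against −0.00 over all genes tested. The lean was not particular to them, since 46 of all 65 members and 7 of 9 DnaJ B genes were positive. Hsp70 genes were even, with 5 of 10 positive. Dnajc24, which serves diphthamide synthesis on elongation factor 2, was 2.95, 1.09, 0.971, 2.91 and 0 CPM in TUMOUR STD libraries 8 to 12. It ran from 2.90 through a median of 3.55 to 4.45 CPM in CHEMO STD. Library 8 and library 11 of TUMOUR STD reached the low end of CHEMO STD, and the other TUMOUR STD libraries lay far below. Its log2 fold change was 1.24 (SE 0.49, edgeR adjusted p 0.719). The gene had at most 43 counts in a library, and the call was lost without TUMOUR STD library 10.

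Dnajc2, the ribosome-associated factor also known as zuotin, was 54.9, 37.2, 16.1, 40.3 and 23.1 CPM in TUMOUR STD. It ran from 33.8 through a median of 54.5 to 69.1 CPM in CHEMO STD, and the groups overlapped over most of their range. The log2 fold change was 0.63 (SE 0.29, edgeR adjusted p 0.719). The call was lost in 7 of 20 fits that left out a library, with the lowest value of 0.44 without TUMOUR STD library 10. Dnajc19, of the mitochondrial import motor, was 34.9, 30.1, 14.6, 42.2 and 27.3 CPM in TUMOUR STD and ran from 34.4 through 43.9 to 50.7 CPM in CHEMO STD. Its log2 fold change of 0.53 (SE 0.21, edgeR adjusted p 0.719) was under the fold limit.

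TUMOUR STD library 10 was low for several DnaJ C genes at once. It was the lowest of the 19 samples for 16 of 65 members, against 13.9% of all genes tested. Dnajc21, a ribosome assembly factor, was 20.7 CPM in library 10, 30.7 in library 12 and 22.3 in CHEMO FO library 16, against 50.1 to 113 CPM in the other 16 samples. Dnajc2 was low in the same 3 libraries, at 16.1, 23.1 and 19.9 CPM, and Dnajc28 was too, at 6.31, 9.05 and 7.68 CPM. Libraries 10 and 16 were also those with raised keratinocyte genes, but library 12 was not, with a keratinocyte sum of 7.10 CPM. The part of keratinocyte content in these values was not tested. Without library 10, 1 member was called in this comparison, and without library 8, the TUMOUR STD sample with the highest Dnajc2, 8 were called. The share of all genes called in those fits is not given here, so these counts are not a result about the members.

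**Figure D1:**
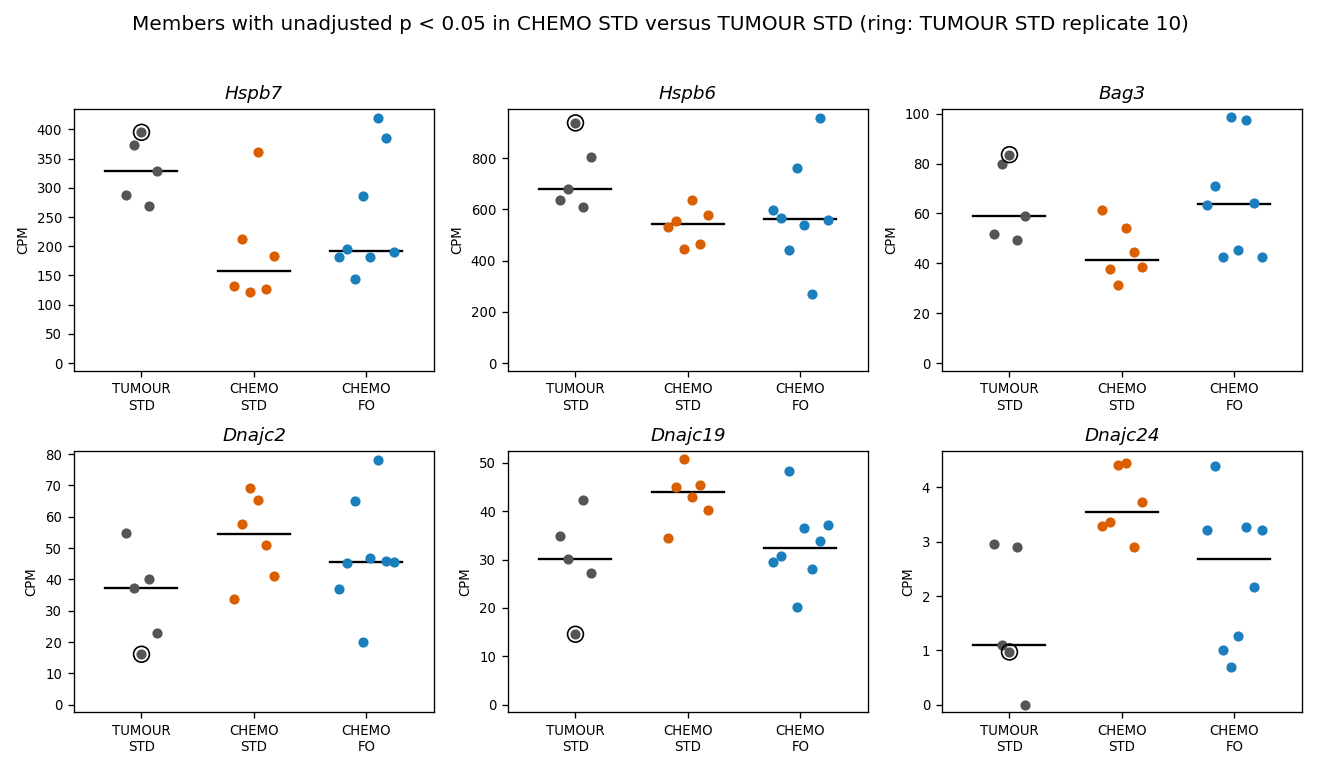
CPM of 6 members by group, with a point for each sample, a line at the median and a ring around TUMOUR STD replicate 10. Hspb7 lay at 269 to 395 CPM in TUMOUR STD and mostly below that in CHEMO STD, and the ringed sample was among the lowest for Dnajc2, Dnajc19 and Dnajc24.

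Fish oil was compared with the standard diet within chemotherapy. In CHEMO FO versus CHEMO STD, 2 of 65 members were called, both higher, against 1.66% of all genes tested (0.615% higher and 1.05% lower). They were Hspb1 and Hspa1b. At an unadjusted p under 0.05 there were 5 members, the others being Bag3, Cryab and Dnajb1, against 4.51% of all genes. None passed after adjustment with edgeR, where 0% of all genes did, or with DESeq2 or limma voom. The last pair gave 6 and 7 members at an unadjusted p under 0.05, without shares over all genes. Without CHEMO FO library 18, no member was called, against 1.47% of all genes. In that fit 3 members had an unadjusted p under 0.05, a count given without its share over all genes. These were Bag3 and Hspa1l, which were higher, and Hsp90b1, which was lower. Markers of other cell types also differed between the diets. Of 5 myelin genes tested, 4 were called lower (3 without library 18), with a median of −0.82. The myelin sum was 457 CPM in libraries 1 and 2 and 279 CPM in library 7. It was 100 to 140 CPM in the other CHEMO STD samples. The group medians of that sum were close, at 138 CPM in CHEMO STD and 133 CPM in CHEMO FO. Of 5 leukocyte genes, 2 were called lower (3 without library 18). The leukocyte sum was 358 CPM in library 7 and at most 190 CPM in the other CHEMO STD samples. The part of nerve or leukocyte content in the members' values was not tested.

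Hspa1b, the stress-induced cytosolic Hsp70, ran from 0.414 through a median of 1.45 to 2.32 CPM in CHEMO STD. In CHEMO FO it ran from 0.802 through 2.01 to 10.0 CPM, the highest value being library 18 and the next 5.52 CPM in library 19. The other CHEMO FO samples lay within or beside the CHEMO STD range. The log2 fold change was 1.15 (SE 0.50, edgeR adjusted p 0.974) and 0.51 (SE 0.43) without library 18. Counts were few, at most 110 in a library. Hspa1b has a near-identical neighbour, Hspa1a, which has no named row in the count table. The handling of reads that fit both genes is not stated in the sources used here. The level of Hspa1b is therefore uncertain.

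Hspb1 (Hsp25 in rodents), a small heat shock protein that protects actin filaments, ran from 141 through a median of 210 to 283 CPM in CHEMO STD. In CHEMO FO it ran from 127 through 270 to 1002 CPM. Apart from library 18, the CHEMO FO values reached 328 CPM, close to the TUMOUR STD values of 161, 184, 333, 238 and 324 CPM. The log2 fold change was 0.69 (SE 0.33, edgeR adjusted p 0.974) with library 18 and 0.21 (SE 0.21) without it. The call was also lost in 9 other fits that left out a library.

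Bag3, Cryab and Dnajb1 had smaller positive differences without library 18, and Cryab and Dnajb1 then no longer had an unadjusted p under 0.05. Bag3 ran from 42.4 through 63.9 to 98.4 CPM in CHEMO FO, above its CHEMO STD median in every sample. Its log2 fold change was 0.55 (SE 0.21, edgeR adjusted p 0.974), and 0.44 without library 18. Cryab (alpha B-crystallin), the desmin chaperone, ran from 886 through 1086 to 1707 CPM in CHEMO STD and from 1148 through 1340 to 2766 CPM in CHEMO FO, a log2 fold change of 0.51 (SE 0.21) that was 0.36 without library 18. All CHEMO FO samples lay above the CHEMO STD median for Cryab, yet the ranges overlapped. Dnajb1 (Hsp40), the main partner of inducible Hsp70, differed by 0.39 (SE 0.16), and by 0.29 without library 18.

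The 2 Bag3 differences had opposite signs, and both comparisons share the CHEMO STD samples. In CHEMO FO versus TUMOUR STD its log2 fold change was 0.01, and −0.086 without library 18. Genes of the immediate early response, which respond within minutes to many stimuli, had the same order. Their median was −0.35 in CHEMO STD versus TUMOUR STD, with 3 of 12 called lower, and 0.42 in CHEMO FO versus CHEMO STD, with 3 of 12 called higher. Without library 18 that median was 0.37, and only Fos was called. Their part in the Bag3 values was not tested. The summed level of the immediate early list was 383 to 474 CPM in TUMOUR STD, 226 to 413 in CHEMO STD and 295 to 544 CPM in CHEMO FO.

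CHEMO FO versus TUMOUR STD combines drug and diet. Here 1 of 65 members was called, Hsp90aa1, against 3.6% of all genes (1.09% higher and 2.51% lower), and 7 had an unadjusted p under 0.05 against 9.04% of all genes. None of the members passed after adjustment (0% of all genes with edgeR), and with DESeq2 11 genes did, none of them a member. DESeq2 and limma voom each gave 6 members at an unadjusted p under 0.05, again without shares over all genes. Without library 18, no member was called, against 2.36% of all genes.

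Hsp90aa1, the stress-induced cytosolic Hsp90, was 14.8, 13.9, 8.74, 15.5 and 7.81 CPM in TUMOUR STD. In CHEMO FO it ran from 6.63 through 14.9 to 114 CPM, and all CHEMO FO samples other than library 18 were at or below 16.4 CPM. The log2 fold change was 1.13 (SE 0.52, edgeR adjusted p 0.541), and 0.12 (SE 0.23) without library 18. Against CHEMO STD it was 0.94 (SE 0.49), and −0.08 without library 18, so the direction turned.

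The values of 3 mitochondrial members were close with and without library 18. Hspe1 was 24.3 to 36.1 CPM in TUMOUR STD and ran from 32.4 through 38.6 to 46.6 CPM in CHEMO FO, a log2 fold change of 0.34 (SE 0.12, edgeR adjusted p 0.486) that was 0.33 without library 18. Dnaja3, a mitochondrial DnaJ, differed by 0.28 (SE 0.11) and by 0.31 without it, and Dnajc30, also mitochondrial, by 0.37 (SE 0.17) and by 0.44. Of 9 mitochondrial chaperones tested, 8 were positive with a median of 0.28 (9 and 0.27 without library 18), against a median of 0.00 over all genes, and none was called. Each of these differences was under 1.5-fold. The same list of 9 had a median of 0.24 with 8 positive in CHEMO STD versus TUMOUR STD. In CHEMO FO versus CHEMO STD its median was −0.01 with 4 positive, and 0.01 with 5 positive without library 18. The other members at an unadjusted p under 0.05 in CHEMO FO versus TUMOUR STD shrank without library 18. Hspa8 went from 0.48 to 0.22, Hspb8 from 0.41 to 0.22 and Dnajb11 from 0.30 to 0.19.

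**Figure D2:**
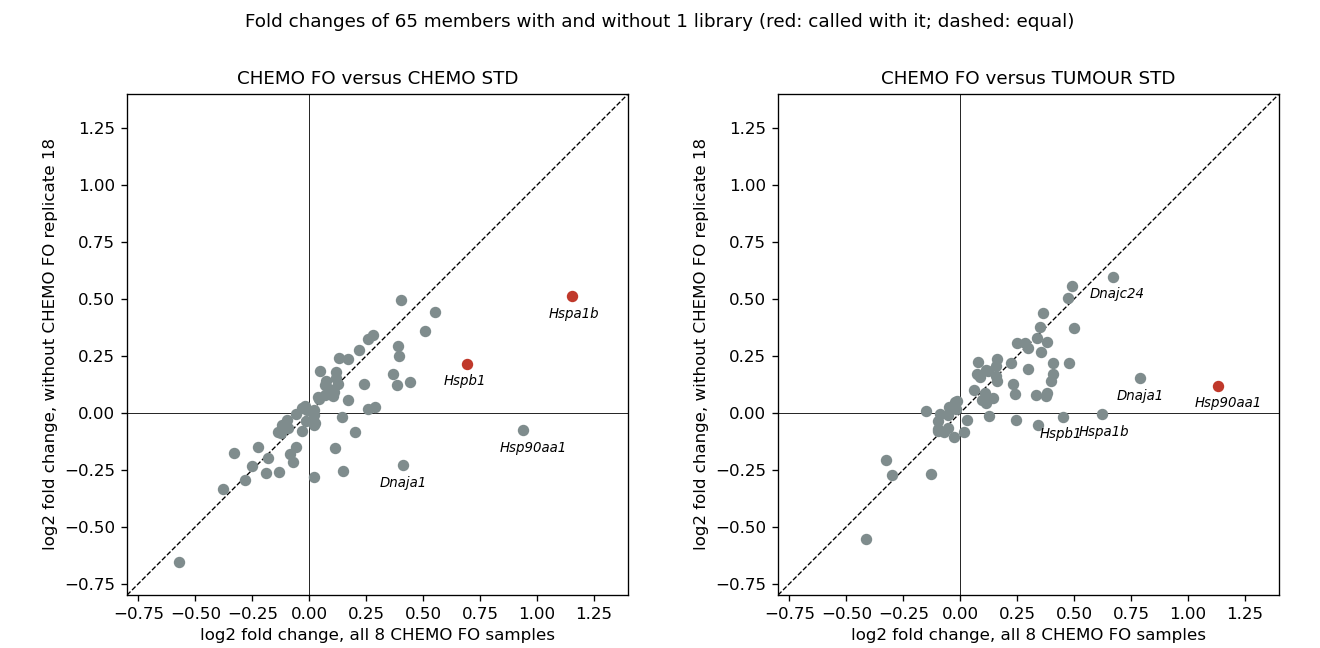
Log2 fold changes of the 65 tested members with all 8 CHEMO FO samples (horizontal axis) and without replicate 18 (vertical axis), for both comparisons that use CHEMO FO, with called members in red and the line of equality dashed. Hsp90aa1 moved from 0.94 to −0.08 against CHEMO STD, and Hspa1b from 1.15 to 0.51.

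Library 18 of CHEMO FO had the highest level of all 19 samples for 26 of the 65 members and the lowest for 10. Over all genes tested, 18.6% were highest and 18.2% lowest in it. The next largest number of members at their highest in any other library was 6. The summed level of the members was 15400 CPM in library 18, and the next highest was 10410 CPM in library 19 of the same group. Against the median of the other 7 CHEMO FO samples, 15 members were more than 2-fold higher, compared with 7.84% of all genes. The choice of this library was made after its values were seen, so these figures carry no test.

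**Figure D3:**
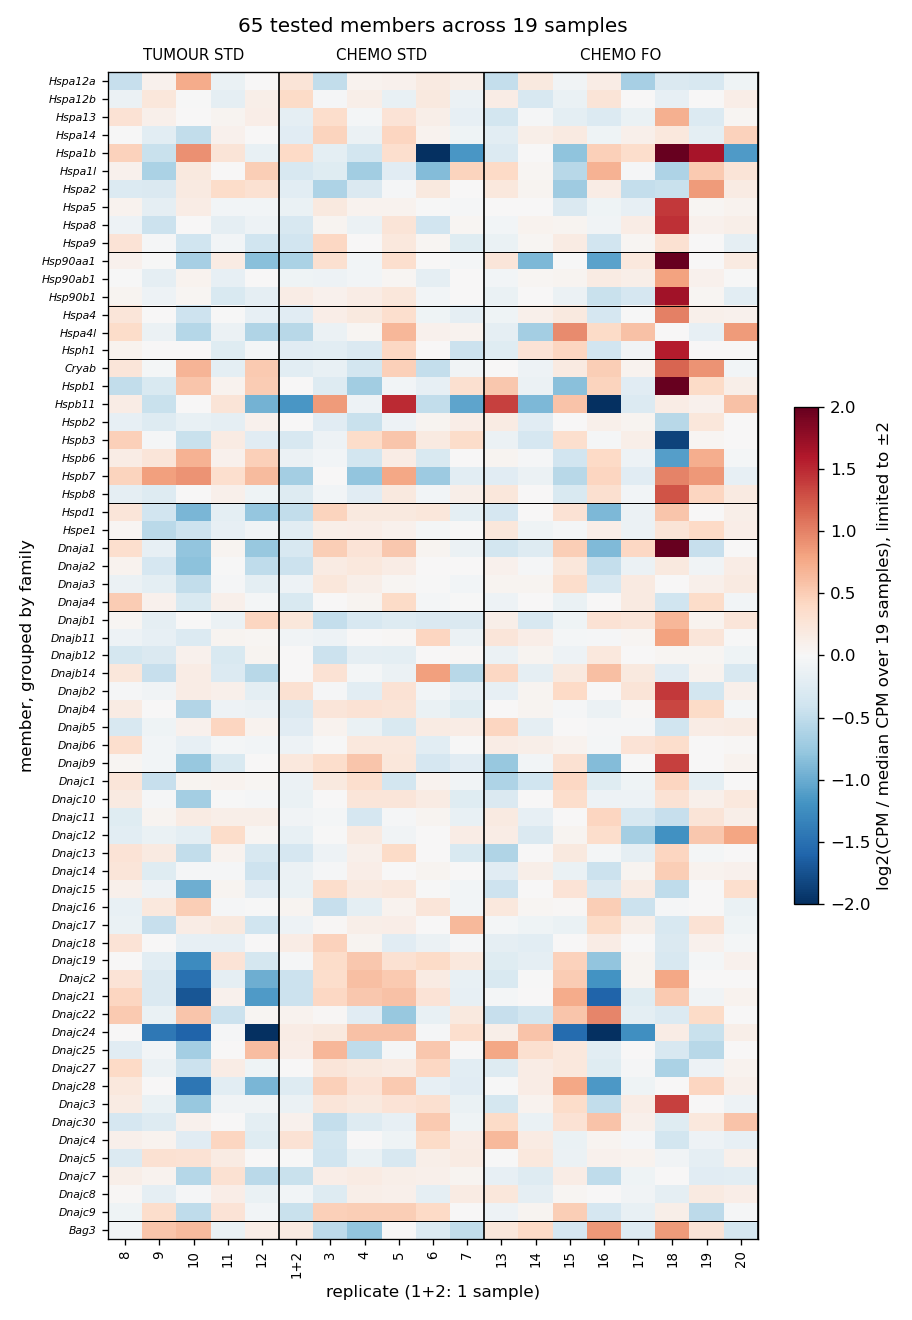
Log2 ratio of CPM to the median over 19 samples for the 65 tested members (rows, grouped by family) in each sample (columns, grouped by treatment), with the colour scale limited to 2 on either side. The column of CHEMO FO replicate 18 is red for many Hsp70, Hsp90, Hsp110 and DnaJ B genes and blue for Hspb3, Hspb6 and Dnajc12.

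The largest ratios in library 18 were those of 4 heat-inducible cytosolic genes. Hsp90aa1 was 114 CPM there and 6.63 to 16.4 CPM in the other 7 CHEMO FO samples, 8.18 times their median. Dnaja1, which delivers clients to Hsp70, was 145 CPM against 15.4 to 39.9 CPM, or 6.11 times. Both lay outside the range of every other sample in the study. Hspa1b was 5.68 times the median and Hspb1 4.09 times. Hsph1, an Hsp110 that helps Hsp70 to dissolve aggregates, was 178 CPM against 46.1 to 80.9 CPM. Hspa8, the constitutive Hsc70, was 2412 CPM against 838 to 976 CPM, or 2.62 times. Not all genes of this kind stood out as far. Dnajb1 was 1.46 times the median, though still the highest of 19. Bag3 was 1.53 times and within the range of the others, and Dnaja4 was 0.756 times and the lowest of 19.

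Several chaperones of the endoplasmic reticulum were high in the same library. Hsp90b1 (Grp94), the Hsp90 of that compartment, was 339 CPM against 78.2 to 109 CPM, or 3.49 times the median. Hspa5 (BiP), its Hsp70, was 584 CPM against 180 to 230 CPM. Their DnaJ partners Dnajb9 and Dnajc3 were 2.59 and 2.57 times the median, and Dnajb11 was 1.69 times. Dnajc10 at 1.21 times and Dnajc25 at 0.791 times, of the same compartment, stayed within the range of the other samples. Over the other 18 samples Hspa5 ran from 180 to 253 CPM, and Dnajb9 from 13.3 to 35.7 CPM. Without library 18, Hsp90b1 was lower in CHEMO FO than in CHEMO STD, with a log2 fold change of −0.26, and with it the value was 0.15.

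The small heat shock genes split in library 18. Hspb7 was 420 CPM against a median of 190, Cryab 2766 against 1293, and Hspb8 800.1 against 379 CPM. Hspb3, which pairs with Hspb2 in muscle, was 11.0 CPM against 31.5 to 50.1, or 0.278 times the median. Hspb6 was 270 CPM against 443 to 957 CPM, or 0.475 times, and Hspb2 was 0.654 times. Dnajc12, a partner of the aromatic amino acid hydroxylases, was 5.45 CPM against 7.88 to 21.8 CPM. The first 3 were thus the highest of 19 samples, and Hspb2, Hspb3, Hspb6 and Dnajc12 the lowest.

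Mitochondrial members stood out less. Hspe1 was 41.9 CPM in library 18 and 32.4 to 46.6 in the rest of its group, Dnaja3 120 against 96.3 to 153, and Hspa9 (mortalin) 298 CPM against 185 to 270. Hspd1, the Hsp60 chaperonin, was 292 CPM, the highest of 19 but close to the 268 CPM of the next sample. Among 21 members that were highest of 19 in library 18 and had a promoter window, 8 (38.1%) held the 2-unit heat shock element, 4 (19%) the 3-unit form and 3 (14.3%) the endoplasmic reticulum stress element. Among 29 other tested members with a window, 8 (27.6%), 1 and 0 did. The first set was formed from the values of library 18 itself, so these shares carry no test. Hsp90aa1, Hspa1b, Cryab, Dnajb4 and Dnajc2 were also highest of 19 but had no window. Hspd1 is in the first set and Hspe1 in the second, although they share their elements.

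**Figure D4:**
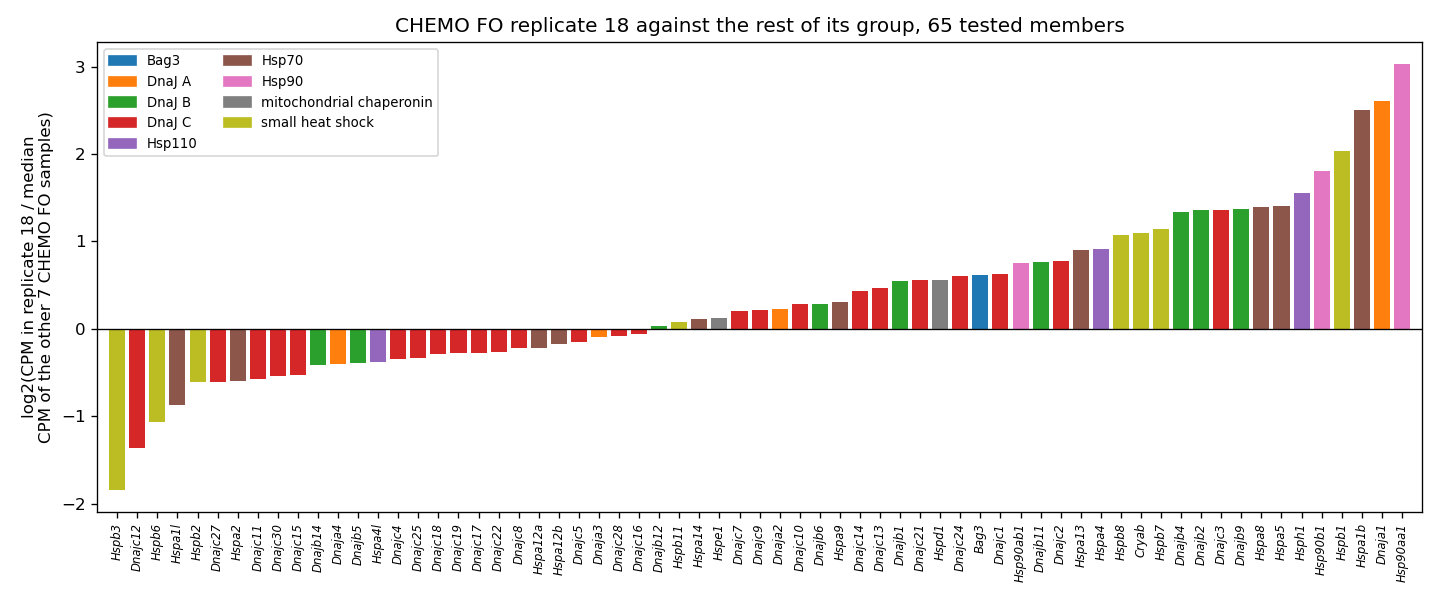
Log2 ratio of CPM in CHEMO FO replicate 18 to the median of the other 7 CHEMO FO samples for the 65 tested members, with bars coloured by family and sorted by the ratio. The highest bar is Hsp90aa1 at 8.18 times the median and the lowest is Hspb3 at 0.278 times.

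Partners outside the rule stood out in library 18 as well, in both directions. Of 34 tested co-chaperones and heat shock factors, 19 were at their highest of 19 samples in it and 5 at their lowest. Over all genes tested, 18.6% were highest and 18.2% lowest in it. The 5 lowest were Cdc37, Stub1, Trap1, Grpel1 and Unc45b. They were at 0.742, 0.664, 0.675, 0.684 and 0.894 times the median of the other CHEMO FO samples. Ptges3 (p23), an Hsp90 co-chaperone, was 168 CPM against a maximum of 56.6 CPM elsewhere, and Ahsa1, the activator of the Hsp90 ATPase, was 149 against 80.2 CPM. Stip1, which bridges Hsp70 and Hsp90, was 217 CPM against 107 CPM, and Hyou1, an Hsp110 of the endoplasmic reticulum, 129 against 80.7 CPM. Hsf1 itself was 49.6 CPM, within the range of the others. None of the 34 was called in any comparison, with or without library 18.

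Hsf1 was the regulator with a difference that did not rest on library 18. The mean Hsf1 level of TUMOUR STD was 43.0 ± 10.4 CPM (SD, n = 5). CHEMO STD had 45.3 ± 7.20 CPM (SD, n = 6), while CHEMO FO had 56.5 ± 7.66 CPM (SD, n = 8), with overlapping ranges. The log2 fold change of CHEMO FO was 0.31 (SE 0.14, edgeR adjusted p 0.974) against CHEMO STD and 0.39 (SE 0.14, edgeR adjusted p 0.490) against TUMOUR STD. Without library 18 these were 0.34 and 0.43. Hsf2 differed by 0.19 and 0.22, and by −0.06 and −0.02 without library 18, where it was 78.3 CPM, so its direction turned.

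Other measures differed in library 18. Its fast-fibre sum was 118700 CPM, the lowest of all samples, against 195200 to 237400 CPM in the rest of CHEMO FO, and its slow-fibre sum was 6338 CPM. Its sequencing depth was 9119394 counts, the highest of its group. Its keratinocyte sum was 5.82 CPM. With library totals in place of composition factors, 34 members were highest and 3 lowest (Dnajc12, Hspb3 and Hspb6), against 33.2% and 11.1% of all genes, and the median ratio over all genes moved to 0.33 on the log2 scale from 0.01. Hspb2 was then no longer among the lowest. The part of fibre content in these values was not tested.

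**Figure D5:**
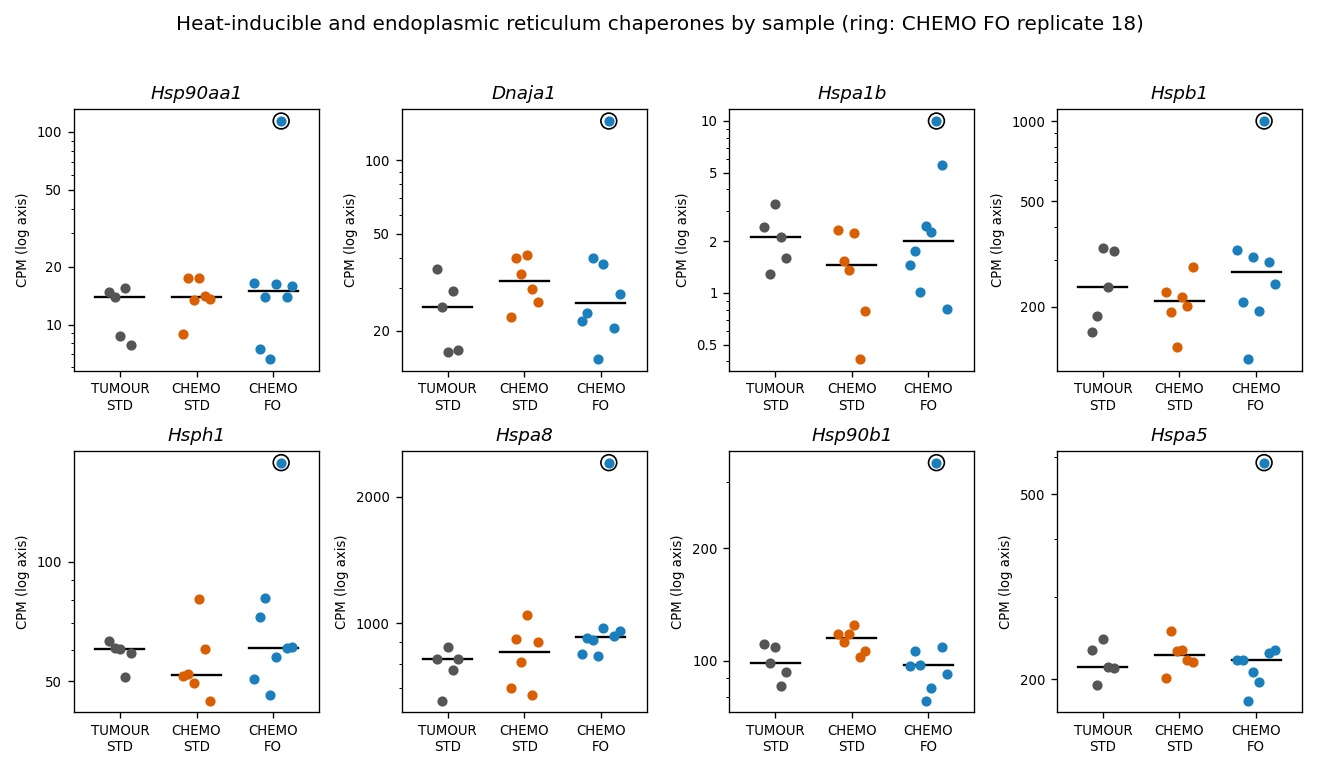
CPM on a log axis of 8 chaperones by group, with a point for each sample, a line at the median and a ring around CHEMO FO replicate 18. The ringed sample lies above all others in each panel, at 114 CPM for Hsp90aa1 and 584 CPM for Hspa5, and the remaining samples of the 3 groups overlap.

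Over the family, the centre of the distribution shifted little. The median log2 fold change of the 65 members was 0.09 in CHEMO STD versus TUMOUR STD and 0.07 in CHEMO FO versus CHEMO STD, where it was 0.02 without library 18. In CHEMO FO versus TUMOUR STD it was 0.16, and 0.09 without library 18, while the median of all genes was −0.00, −0.01 and 0.00 in the 3 comparisons. The heat-inducible list of 16 tested genes, which holds cytosolic members with the mitochondrial Hspd1 and Hspe1, had medians of 0.02, 0.39 and 0.39 in that order, and the last pair fell to 0.13 and 0.12 without library 18. The endoplasmic reticulum list of 9 genes had medians of 0.14, 0.02 and 0.24, and the last pair became −0.15 and 0.09. Within groups, the median SD of the members was 0.331 on the log2 scale against 0.354 for all genes, and 0.269 against 0.322 without library 18.

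Hsp90ab1, the constitutive cytosolic Hsp90, varied little from sample to sample apart from library 18. It averaged 1757 ± 135 CPM (SD, n = 5) without chemotherapy and 1748 ± 94.9 CPM (SD, n = 6) with it. On fish oil it averaged 2064 ± 468 CPM (SD, n = 8), and 1902 ± 92.7 CPM without library 18. Its log2 fold change against CHEMO STD was 0.24 (SE 0.13), and 0.13 (SE 0.08) without library 18. Hspa8 averaged 790.4 ± 84.1, 841 ± 141 and 1099 ± 533 CPM (SD) over the same groups, and the last was 911 ± 53.3 CPM without library 18.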

How the data were processed

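RNA of 20 gastrocnemius libraries was measured by stranded RNA-seq after removal of ribosomal RNA. The deposited table holds raw counts per gene. Per the study's methods, the authors trimmed reads with Trim Galore 0.4.1, aligned them with TopHat2 2.0.10 and Bowtie2 to the rat genome Rnor 6, and counted them in Partek Flow with Ensembl annotation. The counter's strand and multi-mapping settings were not given in the sources used here.

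The 388 rows without a gene name (0.102% to 0.272% of counts) were left out. Libraries 1 and 2 were summed. The counts were filtered with filterByExpr (minimum count 10) and fitted for 3 groups together with edgeR 4.0.16 (TMM factors, quasi-likelihood test) in R 4.3.3, with Benjamini-Hochberg adjustment over 11716 genes. Genes were called at an unadjusted p under 0.05 and 1.5-fold, the thresholds of the study's methods. DESeq2 1.42.0 and limma 3.58.1 (voom with quality weights) were alternatives, with other scalings, filters and left-out libraries. The fitting was tested on simulated data. Members named were those called, fixed anchors and the 5 with the highest mean CPM. Others at an unadjusted p under 0.05 or far from their group in library 18 were chosen after their values were seen. So were co-chaperones high or low in that library. The members and gene lists were chosen with earlier results of these data known. Promoters are RefSeq sequences of build GRCr8, searched with Python 3.11.15. Counting error at these depths limits genes with few counts, such as Dnajc24 and Hspa1b.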

Additional observations from a re-analysis of the deposited data

Results flagged for a closer look

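In groups of 5 to 8 samples, the gap between an extreme sample and its neighbour was set against the range of the group by Dixon's test. Chance flags about 1 in 20 groups. Among all 65 tested members 28 of 195 member groups were flagged, of which 16 were high values of CHEMO FO replicate 18.

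The values given here are those of named members, which were chosen with earlier results known. In CHEMO FO replicate 18 the flagged values were 145 CPM for Dnaja1, 131 CPM for Dnajb4, 62.3 CPM for Dnajb9, 114 CPM for Hsp90aa1, 3202 CPM for Hsp90ab1 and 339 CPM for Hsp90b1. The same sample was flagged for Hspa4 at 302 CPM, Hspa5 at 584 CPM, Hspa8 at 2412 CPM, Hspb1 at 1002 CPM, Hspb8 at 800.1 CPM and Hsph1 at 178 CPM.

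CHEMO STD replicate 5 was high for Cryab at 1707 CPM and for Hspb7 at 362 CPM. The summed CHEMO STD sample of libraries 1 and 2 was low for Dnaja2 at 89.8 CPM and high for Dnajb1 at 16.1 CPM. TUMOUR STD replicate 8 was high for Dnajb6 at 157 CPM.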

How the results depend on the processing

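No paired analysis was possible because the library numbers run on across the groups and none is shared. The cause of the changes below was not tested unless stated. The share of all genes called is not given for these settings, so the counts of members are not set against all genes.

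For the drug comparison on the standard diet (3 members called), the count stayed within 1.5 times under the other tools, scalings and filters. It was 5 with libraries 1 and 2 both left out, and 1 (without TUMOUR STD library 10) to 8 (without TUMOUR STD library 8) when each library was left out in turn. For the diet comparison (2 called), it was 1 with DESeq2, with DESeq2 keeping outlier counts, with library totals as scaling and with the 2 groups fitted alone, and 0 with limma voom. Leaving out each library in turn gave 0 (without library 4, 6, 18 or 19) to 4 (without library 5). For fish oil against untreated tumour-bearing rats (1 called), it was 0 with DESeq2 under both settings, with limma voom and with the 2 groups alone, 2 with no filter on low counts, and 0 (without library 9, 10, 12 or 18) to 5 (without library 8) when each was left out. Without libraries 18 and 10 together, chosen after seeing the data, no member was called in either comparison of CHEMO FO, and 2 were called in the other.

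In the diet comparison, signs turned to negative for Hsp90aa1 with DESeq2 (−0.082), which replaces outlying counts in large groups by default. With those counts kept, a setting chosen after seeing the data, it was 0.86. With limma voom, which gives outlying libraries less weight, Dnaja1 was −0.27, Hsp90aa1 −0.024, Hsp90b1 −0.21 and Hspa5 −0.078. Left-out libraries gave ranges of −0.23 to 0.53 for Dnaja1, −0.077 to 1.08 for Hsp90aa1, −0.26 to 0.22 for Hsp90b1 and −0.084 to 0.27 for Hspa5, each lowest without library 18. Without libraries 18 and 10 together these were −0.24 (Dnaja1), −0.078 (Hsp90aa1), −0.26 (Hsp90b1) and −0.091 (Hspa5).

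Against untreated tumour-bearing rats, left-out libraries gave −0.014 to 0.24 for Cryab, −0.056 to 0.42 for Hsp90b1, −0.0050 to 0.86 for Hspa1b, −0.034 to 0.32 for Hspa5 and −0.017 to 0.59 for Hspb1, each lowest without library 18. Hsp90b1 was −0.030 without libraries 18 and 10 together. The median log2 fold change of the members moved by less than the spread between samples in all settings run. That spread (a median SD of 0.331 within groups) was larger than the medians themselves, so this does not show that they were stable. Leaving out library 18 lowered the median from 0.071 to 0.017 in the diet comparison. Against untreated tumour-bearing rats it fell from 0.155 to 0.086. For the drug comparison on the standard diet, left-out libraries gave 0.062 to 0.114, against 0.090. Dnajc24 and Hspa1b rest on few counts.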
